A study of Rattus norvegicus with 9 samples.

Results

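The genes described here make or degrade galactosylceramide and its sulfated form, sulfatide, which the O4 antibody binds. The set was chosen by gene symbol and holds 8 genes: Sptlc2, Degs1 and Cers2 of ceramide synthesis, Ugt8 and Fa2h of galactolipid synthesis, and Arsa, Galc and Psap of breakdown. Of these, 7 had a probe under their own symbol, with 9 probes in all among the 35129 probes of the platform and 12167 genes with values. No probe was named for Sptlc2 alone, a subunit of serine palmitoyltransferase, so it is not analysed here. Arsa and Psap had 2 probes each, and the gene was represented by the brighter one. RNA came from oligodendrocyte progenitor cell cultures of newborn rats, from which 3 populations were sorted by surface antigen. The cells called O4 bound the O4 antibody and lacked NG2, those called NG2/A2B5 carried both NG2 and A2B5, and those called NG2 carried NG2 alone. No genotype, strain or treatment is stated for any group. There were 3 arrays of 1 colour for each population, with the numerals I, II and III in their names. Cultures also numbered 3 per the series text, but no label links a numeral to one of them, and the p-values therefore cover only the spread among the 9 arrays, which may be technical.

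Galactosylceramide is built from ceramide in the endoplasmic reticulum by the galactosyltransferase Ugt8, and a sulfotransferase in the Golgi turns it into sulfatide. Fa2h adds a hydroxyl group to the fatty acid before it enters the lipid, and Cers2 supplies the very long acyl chains common in myelin. In lysosomes Arsa removes the sulfate, Galc removes the galactose, and saposins cut from Psap present the lipids to these enzymes. Cells of the oligodendrocyte lineage become O4-positive before they make myelin, around the time NG2 is lost.

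The promoters of 4 genes are shown. Fa2h had the widest differences by array numeral, and Cers2 was the only measured gene of the set with array II highest in each population. Ugt8 is the committed enzyme of synthesis, and Galc is an enzyme of breakdown. Each promoter runs 5′ to 3′ on the strand of its gene, from 250 bases before to 50 bases after the start in RefSeq (rat build GRCr8). Capitals mark matches, on either strand, to GGGCGG (GC box), CCAAT, the octamer ATGCAAAT or CACGTG.
Fa2h: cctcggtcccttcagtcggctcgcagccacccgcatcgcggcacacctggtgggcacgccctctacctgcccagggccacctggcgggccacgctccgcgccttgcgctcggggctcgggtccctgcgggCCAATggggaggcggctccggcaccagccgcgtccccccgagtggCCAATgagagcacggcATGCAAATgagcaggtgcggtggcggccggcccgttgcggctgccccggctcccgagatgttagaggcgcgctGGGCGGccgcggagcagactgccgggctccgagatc
Ugt8: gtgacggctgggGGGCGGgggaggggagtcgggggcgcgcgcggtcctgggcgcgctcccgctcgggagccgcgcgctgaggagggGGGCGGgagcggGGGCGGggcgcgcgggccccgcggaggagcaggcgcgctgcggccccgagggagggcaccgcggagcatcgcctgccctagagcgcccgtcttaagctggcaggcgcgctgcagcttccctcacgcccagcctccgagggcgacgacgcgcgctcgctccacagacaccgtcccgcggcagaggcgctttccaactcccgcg
Galc: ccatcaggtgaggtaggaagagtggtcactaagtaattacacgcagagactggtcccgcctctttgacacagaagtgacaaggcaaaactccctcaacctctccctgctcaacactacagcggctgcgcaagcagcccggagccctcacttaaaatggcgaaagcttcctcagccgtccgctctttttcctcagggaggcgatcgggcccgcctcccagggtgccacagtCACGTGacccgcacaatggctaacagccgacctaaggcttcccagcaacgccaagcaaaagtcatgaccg
Cers2: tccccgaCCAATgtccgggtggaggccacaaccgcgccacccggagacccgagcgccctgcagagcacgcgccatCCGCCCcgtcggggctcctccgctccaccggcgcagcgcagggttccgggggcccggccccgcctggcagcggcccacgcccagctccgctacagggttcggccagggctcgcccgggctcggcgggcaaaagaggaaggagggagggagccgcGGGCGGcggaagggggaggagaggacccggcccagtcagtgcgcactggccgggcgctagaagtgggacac
The Fa2h promoter lies at chr19:56273431-56273730 on the minus strand and was 74.3% G and C, against a median of 51.7% over 33469 rat promoters. It held the octamer, which 1.78% of promoters hold, 59 bases before the start, and CCAAT 120 and 75 bases before it, a motif present in 37.5% of promoters. The Ugt8 promoter, at chr2:217007118-217007417 on the minus strand, was 79.3% G and C and held 3 GC boxes, a motif in 33.1% of promoters. The Galc promoter, at chr6:123245510-123245809 on the minus strand, was 57.3% G and C. Its CACGTG, the core letters bound by TFEB-type factors of lysosomal genes, begins 20 bases before the start, and 6.42% of promoters hold this motif. The Cers2 promoter, at chr2:185579261-185579560 on the plus strand, was 76.0% G and C and held CCAAT and 2 GC boxes. ACAAAG, a core motif of SOX factors, and TATAAA were in none of these 4 windows, against 18.8% and 14.2% of all promoters. Promoters were matched for 6 of the 8 genes, and Arsa and Psap were the missing entries.

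Array medians lay between 1.05 and 1.07 intensity units, and each array gave values for 34926 to 34975 probes. The 25th percentile of all probes, used here as the mark of a dim probe, lay between 0.205 and 0.255. All 7 gene-representing probes were above it on all 9 arrays. Summed intensity of 11 measured oligodendrocyte lineage markers lay in overlapping ranges: 533 to 829 for the O4 arrays, 544 to 764 for NG2/A2B5 and 587 to 707 for NG2. Cspg4, the gene of NG2, was at 6.92 ± 0.37, 7.07 ± 0.42 and 7.22 ± 0.15 log2 in O4, NG2/A2B5 and NG2 (SD, n = 3 each), a difference that did not pass the test although the O4 cells were sorted as NG2-negative. Gal3st1, the sulfotransferase that makes sulfatide, had no probe named for it alone and is not analysed here. In sorted bulk samples, fewer cells of a type and less RNA per cell cannot be told apart. Intensities of different probes are not compared with each other.

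Within ceramide synthesis, Degs1, which puts in the double bond that makes dihydroceramide into ceramide, had intensities of 47.0, 46.4 and 52.5 in O4 (arrays I, II and III). It had 52.9, 59.8 and 55.2 in NG2/A2B5. It had 49.3, 70.6 and 52.5 in NG2. The O4 arrays were under those of NG2/A2B5 at every numeral and at or under those of NG2, where the III arrays were equal to 3 digits. All O4 values of Degs1 were below all NG2/A2B5 values, a lack of overlap in either direction that 8.67% of the 12025 genes with all values also had, while O4 and NG2 overlapped. Cers2 read 46.3, 64.5 and 58.6 in O4. It read 50.6, 72.0 and 44.8 in NG2/A2B5. It read 51.9, 80.1 and 49.8 in NG2. In all 3 populations array II was the highest for Cers2, and the populations overlapped fully.

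Among the galactolipid enzymes, Ugt8 had intensities of 3.53, 1.94 and 4.30 in O4. Its values were 3.48, 3.96 and 6.21 in NG2/A2B5. Its values were 4.68, 2.88 and 5.17 in NG2. The O4 arrays were below the NG2 arrays of the same numeral each time, but the lowest NG2 array was under 2 of the O4 arrays. Fa2h read 5.48, 1.65 and 8.48 in O4. It read 3.25, 1.52 and 5.43 in NG2/A2B5. It read 4.57, 1.05 and 7.04 in NG2. For Fa2h the O4 array was the highest at each numeral, while every II array lay below every I and III array whatever its population.

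For the breakdown genes, Arsa had intensities of 8.62, 6.80 and 9.75 in O4. They were 7.29, 7.07 and 7.96 in NG2/A2B5. They were 8.04, 6.79 and 9.03 in NG2. The 3 II arrays were the lowest of the 9, as for Fa2h. Galc read 4.83, 3.72 and 6.55 in O4. It read 4.81, 4.81 and 6.04 in NG2/A2B5. It read 6.09, 5.63 and 6.80 in NG2. At each numeral Galc was lower in O4 than in NG2, as for 17.8% of genes, and the groups overlapped. Psap read 35.3, 20.5 and 44.3 in O4. It read 32.9, 32.7 and 46.8 in NG2/A2B5. It read 32.0, 28.5 and 32.3 in NG2. The O4 arrays of Psap spanned more than the NG2 arrays, which lay inside that span. All NG2 values of Psap were below all NG2/A2B5 values by a small margin, as in either direction for 10.2% of genes, and the groups overlapped with quantile normalization. No gene of the 7 separated O4 from NG2, which 14% of genes did, although Degs1 did so with quantile normalization. The second Arsa probe, at 1.72 to 2.81, and the second Psap probe, at 0.0841 to 0.422, did not repeat the order of their brighter partners, and the latter was above the dim mark on 5 of 9 arrays and on none of the O4 arrays, so no difference is given for it.

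**Figure D1:**
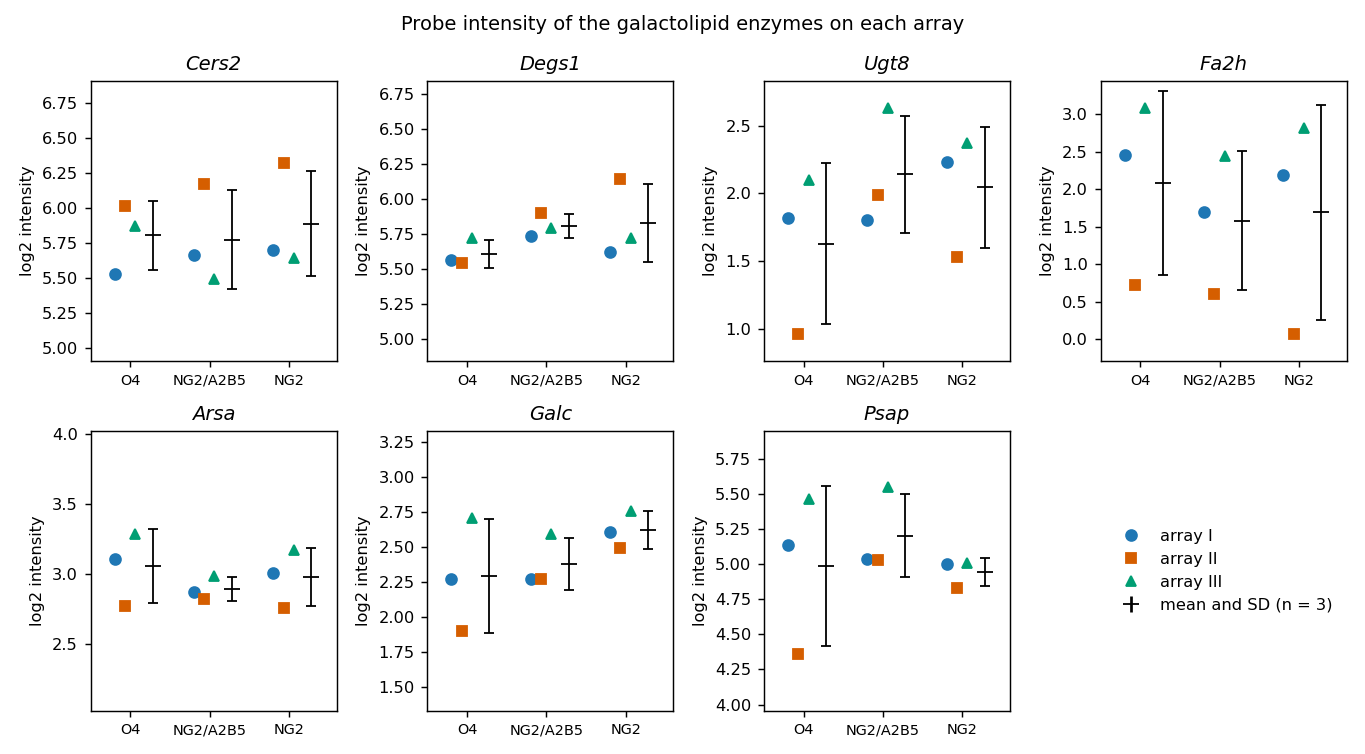
Log2 intensity of the 7 measured genes on each of the 9 arrays, by sorted population, with marker shape and colour giving the numeral and bars giving the mean and SD (n = 3). For Fa2h the array II points sit apart at the bottom of each population, while population means lie between 1.58 and 2.09.

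The study set each population against the other 2, and none of the 7 genes passed the test in any of these comparisons. In O4 minus NG2, 0 of the 7 were called at an adjusted p of 0.05, against 0.00822% of all genes tested (1 of 12165), and 0 of the 7 had an unadjusted p under 0.05, against 8% of genes (973). Ugt8 stood at 1.63 ± 0.60 log2 in O4 and 2.04 ± 0.45 in NG2 (SD, n = 3), a difference of -0.41 with a 95% interval of -1.29 to 0.46. Leaving out 1 array moved it from -0.67 (without NG2 array II) to -0.08 (without O4 array II). Fa2h stood at 2.09 ± 1.22 and 1.69 ± 1.44, a difference of 0.39 with an interval of -1.65 to 2.43. In this fit, which leaves out the numeral, the interval for Fa2h reaches from 0.319-fold to 5.41-fold. With the numeral as a fixed replicate block it was -0.15 to 0.94, or 0.899-fold to 1.92-fold. A lower or a higher level in O4 cells lies within either interval. Galc differed by -0.33 (interval -0.85 to 0.20) and Degs1 by -0.23 (-0.62 to 0.17). The upper bounds were 1.13-fold for Degs1 and 1.15-fold for Galc with all arrays. Without NG2 array II the Degs1 difference was -0.068 (-0.42 to 0.28), and without O4 array II that of Galc was -0.13 (-0.63 to 0.37), with upper bounds of 1.21-fold and 1.29-fold. Without O4 array III the Galc difference was -0.54 (-1.02 to -0.055), an interval that did not cross 0, and Galc was still not called. Arsa differed by 0.071, Psap by 0.041 and Cers2 by -0.081, all with intervals across 0. Adjusted p-values of the 7 genes lay between 0.754 and 0.98 (limma, Benjamini-Hochberg over all genes).

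O4 minus NG2/A2B5 called 0 of the 7 genes, against 0.00822% of all genes, with 3.28% (399) at an unadjusted p under 0.05 and none of the 7 among them. Ugt8 differed by -0.51 (interval -1.39 to 0.36) and Fa2h by 0.51 (-1.53 to 2.55), and neither passed. With the numeral as a fixed replicate block the intervals were -1.08 to 0.052 for Ugt8 and -0.041 to 1.05 for Fa2h. Leaving out 1 array moved Fa2h from 0.0072 (without O4 array III) to 1.19 (without O4 array II), and Ugt8 from -0.75 to -0.18 without the same arrays. By numeral, the Ugt8 differences were 0.02, -1.03 and -0.53, and those of Fa2h 0.75, 0.12 and 0.64. Degs1 differed by -0.20 (-0.60 to 0.19), and Psap, Arsa, Galc and Cers2 by -0.22, 0.16, -0.083 and 0.033. NG2/A2B5 minus NG2 called 0 of the 7 against 0% of all genes (0 of 12166), with 4.48% of genes (545) at an unadjusted p under 0.05 and none of the 7 among them. Here the differences ran from -0.25 for Galc to 0.26 for Psap, and Ugt8 was at 0.098. The F test over the 3 populations also called 0 of the 7, against 0.00822% of genes, with 5.37% of genes (653) and 0 of the 7 at an unadjusted p under 0.05. The direction of 12 of the 21 differences turned when 1 array was left out, among them Fa2h in O4 minus NG2, which ran from -0.42 without NG2 array II to 1.08 without O4 array II.

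**Figure D2:**
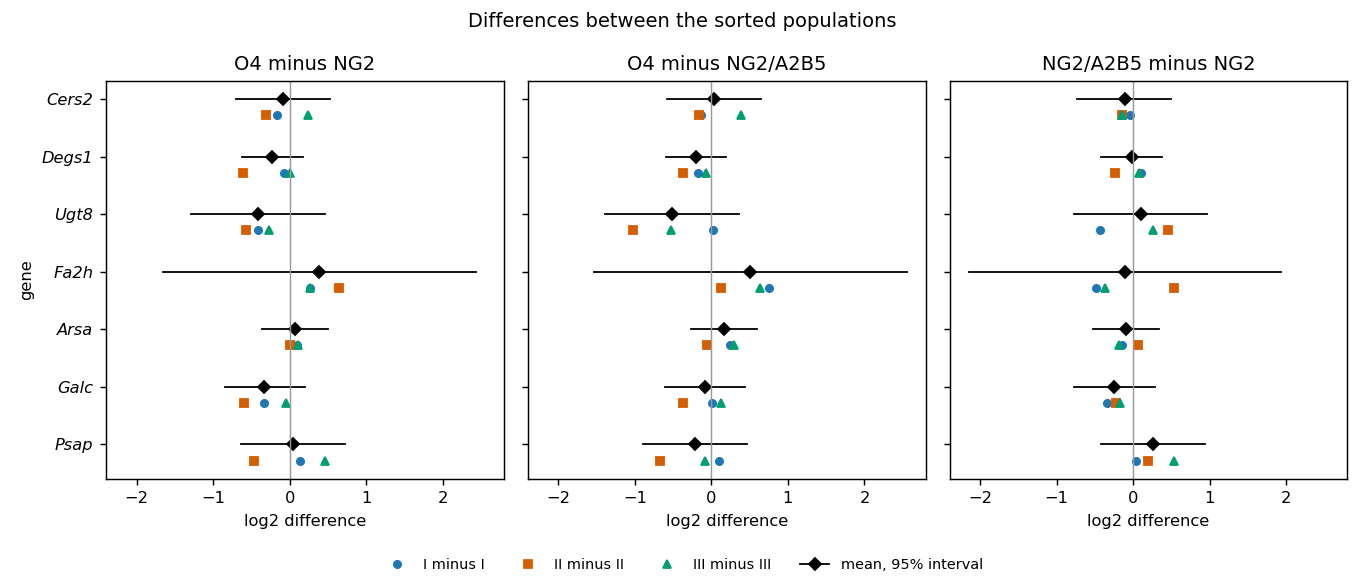
Differences in log2 intensity between the sorted populations for the 7 genes: black diamonds are mean differences with 95% intervals from the limma fit, and coloured points are the differences between arrays of the same numeral. Every interval crosses 0, and that of Fa2h is the widest, from -1.65 to 2.43 in O4 minus NG2.

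The orders of arrays given above, here and below were picked after the values had been seen. O4 was under NG2 at each numeral for Ugt8, Galc and Degs1, 3 of 7 genes, as it was for 17.8% of genes. O4 was over NG2 at each numeral for Fa2h and Arsa, against 20.1% of genes. Fa2h was the one gene of the 7 with O4 highest at each numeral, a pattern of 7.04% of genes, and Degs1 the one with O4 lowest at each, against 5.72%. The Degs1 order was lost when arrays were centred on their medians.

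Arrays of one numeral shared low or high values of Fa2h in all 3 populations. In the test of the numeral, fitted beside population, Fa2h was the only one of the 7 called, against 0.674% of all genes (82 of 12166). Its means were 2.12 ± 0.38 log2 for I, 0.46 ± 0.35 for II and 2.78 ± 0.32 for III (SD, n = 3), a span of 2.32 or 4.98-fold (limma F test, adjusted p = 0.0438). Array III exceeded array II 5.14-fold in O4, 3.58-fold in NG2/A2B5 and 6.71-fold in NG2. The numeral took 92.0% of the variance of Fa2h and the population 4.56%. The call was lost whichever 1 of the 9 arrays was left out (limma F test, adjusted p 0.102 to 0.167). In those fits the unadjusted p of Fa2h was 0.000105 to 0.00196, and 0 to 2 of all genes were called. The call was also lost with the mean of each gene's probes (0.0612) and with all single-symbol probes tested separately (0.0648). Fa2h has 1 probe, so its own values were the same in both settings.

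The next largest numeral span was that of Ugt8, at 1.95 ± 0.24, 1.49 ± 0.51 and 2.37 ± 0.26 log2 for I, II and III, a span of 1.84-fold (adjusted p = 0.179). Cers2 had its highest mean on II, at 5.63 ± 0.087, 6.17 ± 0.16 and 5.67 ± 0.20 (1.45-fold, adjusted p = 0.181). Galc, Arsa and Psap spanned 1.39-fold, 1.29-fold and 1.52-fold, with adjusted p-values of 0.235, 0.253 and 0.291. Degs1 spanned 1.17-fold (adjusted p = 0.597) and was the only one of the 7 whose population share of the variance, 33.0%, was above its numeral share, 27.0%. At an unadjusted p under 0.05 stood Fa2h, Ugt8 and Cers2, 3 of 7, against 21.5% of all genes.

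Array III was the highest in each population for Ugt8, Fa2h, Arsa, Galc and Psap, 5 of 7 genes, against 9.67% of all genes. Array II was the lowest in each for Fa2h, Arsa, Galc and Psap, against 7.72%, and both held for those same 4 genes, against 2.82%. The margins were small in places: in NG2/A2B5, Galc on array I exceeded array II by 0.0006 log2 and Psap by 0.0062. All 3 II arrays were under the other 6 for Fa2h and Arsa, against 3.91% of genes. Array II was the highest in each population for Cers2, against 15.6%, and above all other 6 arrays, against 8.18%. With quantile normalization Psap left the pattern of III highest with II lowest, and Cers2 lost both of its orders. With the mean of each gene's probes, Fa2h and Galc alone kept III highest with II lowest. The genes share the same 9 RNA samples.

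**Figure D3:**
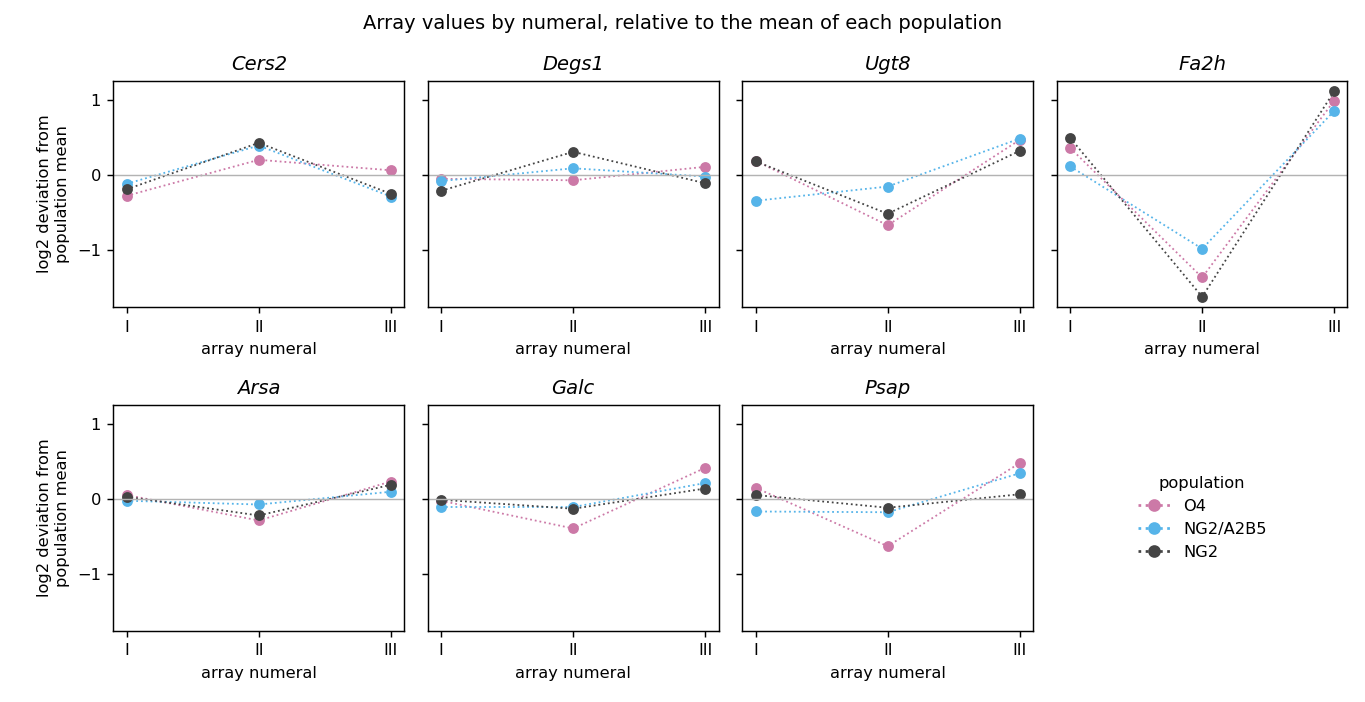
Log2 intensity of the 7 genes relative to the mean of each population, by array numeral, with dotted lines that join the 3 arrays of a population and stand for no order in time. Fa2h drops at II and is highest at III in all 3 populations, and Cers2 is highest at II.

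Cell type markers were summed by numeral, with no test of the sums. The summed intensity of the 11 oligodendrocyte lineage markers was 544 to 653 on I, 533 to 587 on II and 707 to 829 on III, so that III lay above the others. This sum is led by its brightest probes, those of Bcas1, Cnp and Cspg4. No marker of this list was dim on all arrays. The Mbp means were -2.36, -2.58 and -1.83 log2 on I, II and III, with those on I and II under the dim mark. Of the 11, Bcas1 alone had III highest and II lowest in each population, and Olig2 alone had II highest in each. Olig1, Mag and Mog also had their highest numeral mean on II. The 8 measured astrocyte markers summed to 97.1 to 117, 72.4 to 107 and 119 to 168, with III again above the others. Of these 8, Gfap and Aldoc had III highest and II lowest in each population, Gja1 had II highest in each, and none was called in the numeral test. The Gfap mean on II, -2.81 log2, was under the dim mark. The 5 Schwann cell markers overlapped between numerals at 107 to 135, 97.2 to 142 and 134 to 172. Fibroblast and endothelial markers (8, Lum dim on all arrays) were at 23.1 to 25.3, 28.1 to 35.0 and 24.1 to 28.9. Neuron markers (6, Snap25 dim) were at 11.4 to 14.4, 12.9 to 17.7 and 8.08 to 14.0, and microglia markers (11, with C1qa, C1qb and C1qc dim on all arrays) at 6.88 to 8.98, 6.13 to 10.8 and 6.41 to 8.21, both with overlap. Their part in the order of Fa2h and the other genes was not tested. By population, the microglia sums were higher in O4 (8.21 to 10.8) than in NG2/A2B5 (6.13 to 7.63) or NG2 (6.41 to 7.33). These sums are led by the brightest probe, that of Itgam, at 2.69, 2.14 and 2.24 log2 in the same order. Of the 11 markers, 7 were higher and 4 lower in O4 minus NG2/A2B5, and 8 higher and 3 lower in O4 minus NG2. The part of these markers in the population differences was not tested.

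The range of the numeral means was larger than that of the population means for 6 of the 7 genes, all but Degs1, as for 61.0% of 12025 genes. The median range over the 7 genes was 0.26 log2 between populations and 0.54 between numerals, beside 0.33 and 0.44 over all genes.

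**Figure D4:**
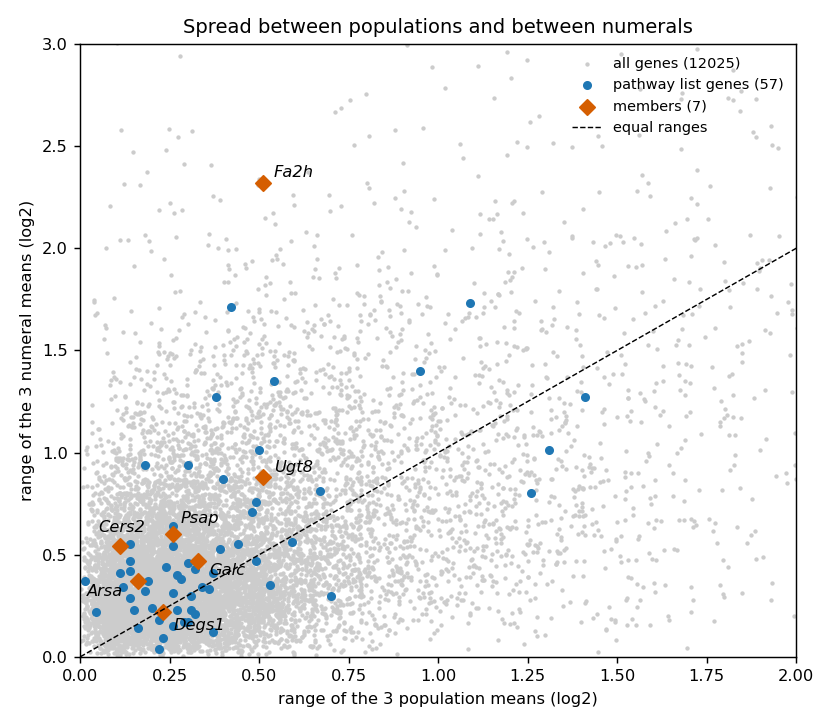
Range of the 3 numeral means against the range of the 3 population means, in log2, for all genes (grey), other genes of the galactolipid pathways and the 7 measured genes (named). Fa2h lies far above the line of equal ranges and Degs1 just off it, and 643 of the 12025 genes fall outside the axes.

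The rest of the pathway was read from 5 lists, and no gene of them was called in any population comparison. In ceramide synthesis 12 of 21 listed genes were measured. In O4 minus NG2, 3 were higher and 9 lower, with a median of -0.15, beside 0.016 for all genes. Elovl6, which lengthens fatty acids, had means of 2.73 ± 0.23, 3.25 ± 0.34 and 3.43 ± 0.25 log2 for O4, NG2/A2B5 and NG2 in turn (SD, n = 3), the order used below, with an F test adjusted p = 0.902. Sptssa, a small subunit of serine palmitoyltransferase, had means of 6.03, 6.09 and 6.32 (adjusted p = 0.949). The list of galactosylation, hydroxylation and sulfation had 8 of 13 genes measured, with 3 higher and 5 lower and a median of -0.12. There Bpnt2, a Golgi phosphatase that clears a by-product of sulfation, was at 1.32, 1.57 and 1.69 (adjusted p = 0.954). Papss1, which makes the sulfate donor, was at 7.30, 7.04 and 7.17 (0.96).

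Of the breakdown list 16 of 17 genes were measured, with 7 higher and 9 lower in O4 minus NG2 and a median of -0.12. Sphk2, a sphingosine kinase, was at 4.48, 4.45 and 4.16, and M6pr, a carrier of lysosomal enzymes, at 4.60, 4.56 and 4.79 (adjusted p = 0.949 and 0.96). Of the branches that compete for ceramide 18 of 21 were measured, 6 higher and 12 lower, with a median of -0.052. Cert1, which carries ceramide towards sphingomyelin synthesis, was at 4.91, 5.19 and 5.44 (adjusted p = 0.945), and B4galnt1, a ganglioside synthase, at 2.86, 2.27 and 2.54 (0.949). Of the genes for transfer and binding of galactolipids in myelin 10 of 12 were measured, 6 higher and 4 lower, with a median of 0.23. Cldn11, a tight junction gene of myelin, and Mog, a late myelin gene, were above the dim mark on 7 and 6 of the 9 arrays. Their means were -1.41, -0.58 and -1.98 for Cldn11 and -1.11, -2.37 and -1.45 for Mog (adjusted p = 0.954 and 0.959). St8sia1, the synthase of gangliosides from which A2B5 antigens derive, was at 0.96, 1.40 and 0.98 log2 (adjusted p = 0.96).

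In O4 minus NG2/A2B5 the list medians were -0.10, -0.10, -0.09, -0.11 and -0.032 in the order above, beside 0.02 for all genes. For NG2/A2B5 minus NG2 they were -0.02, -0.039, -0.017, 0.02 and 0.11, beside -0.011. Comparisons that share a population share its arrays. In the numeral test Fa2h was the only gene of the 5 lists called. III highest with II lowest held for 2 of 12 genes of ceramide synthesis (Sptssb and Ormdl2) and 1 of 8 of galactosylation (Fa2h). It held for 4 of 16 of breakdown (Arsa, Galc, Psap and Acer2) and 1 of 10 of the last list (Nfasc). In the competing branches it held for 0 of 18, which is near the 2.82% of all genes with that order. Array II was highest in each population for 1 of 12 genes of ceramide synthesis (Cers2), 2 of 8 of galactosylation (Slc35a2 and Papss1), 5 of 18 of the competing branches (Sgms1, B4galt5, B4galt6, St3gal5 and Cerk) and 0 of the other 2 lists, beside 15.6% of all genes. Cerk, the ceramide kinase, was at 3.61, 4.45 and 3.57 log2 for I, II and III (adjusted p = 0.0575).

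Likeness was measured as Pearson's r over the 9 arrays and is a description of arrays that share numerals. It was taken among 10149 genes with a value on every array and a mean log2 over -2.463. That cutoff is the 25th percentile of the mean log2 of all probes, not the dim mark of each array. The 5 genes most like Fa2h were Klf11 (0.977), Rnase12 (0.977), Mir9-3hg (0.969), Myrf (0.967) and Ucma (0.962). Myrf, a transcription factor of myelin genes, had numeral means of 3.96, 2.82 and 4.51, a 3.22-fold span (adjusted p = 0.0573). Rnase12 and Ucma spanned 5.96-fold and 6.75-fold (adjusted p = 0.0346 for each). The 5 most like Ugt8 were Dhx57 (0.998), Lrrn1 (0.981), Ptdss2 (0.976), Lrrc4c (0.973) and Pmel (0.973). Ptdss2, a phosphatidylserine synthase, had a span of 1.30-fold. Among the genes of the set, Arsa had r = 0.931 with Fa2h, Ugt8 0.673, Psap 0.672, Galc 0.606, Degs1 -0.534 and Cers2 -0.814. With Ugt8 the values were 0.835 for Psap, 0.809 for Galc, 0.602 for Arsa, 0.07 for Degs1 and -0.571 for Cers2.

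**Figure D5:**
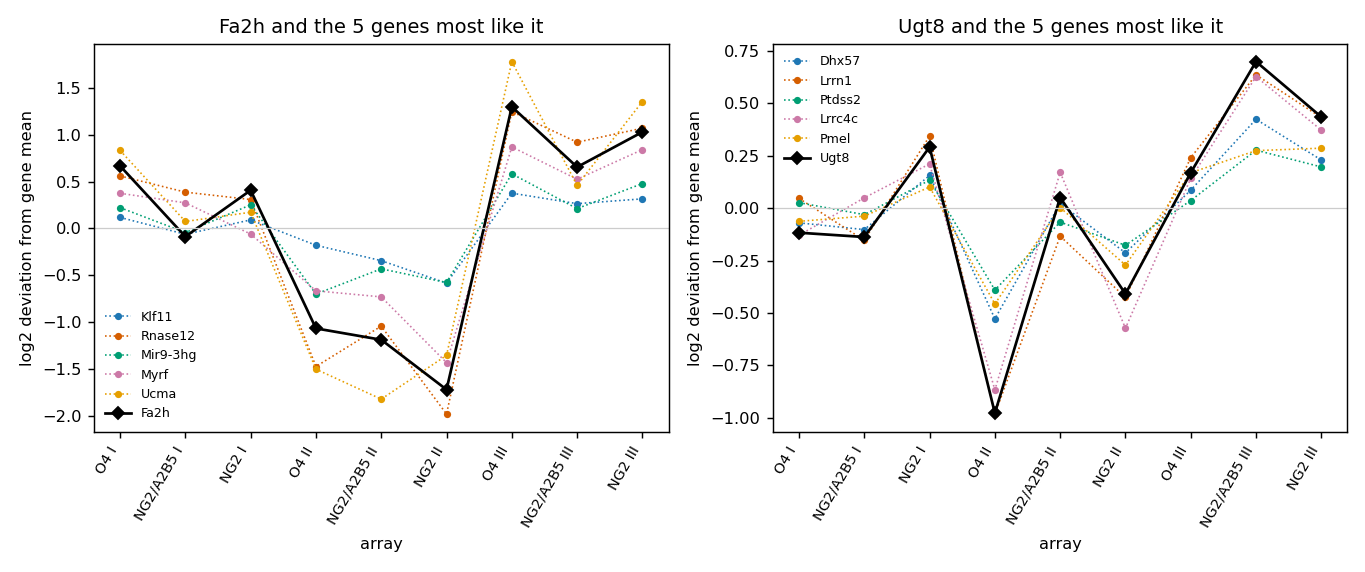
Log2 deviation from each gene's mean over the 9 arrays, for Fa2h and Ugt8 with the 5 genes most like each by Pearson's r, the lines joining arrays that have no order. Fa2h and its 5 closest genes share a low point at array II in each population, and the Ugt8 panel has its lowest point at the O4 array II.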

How the data were processed

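The deposited table holds an intensity for each of 35129 probes on 9 one-colour arrays, and code -9999 was read as missing. Per the labels' protocols, 10 ng of total RNA was amplified by 2 rounds of in vitro transcription with biotin labelling, and synthetic mRNA spikes served to normalize the data. For the array type, scanner and software, the sources used here give nothing. Array medians agreed, so no further normalization was applied. Values at or under 0 were set to the array's smallest positive value and log2 was taken. Of the probes, 16865 have 1 gene symbol, 165 several and 18099 none. Only the first were used, and 16836 matched by Entrez identifier to RefSeq names (GRCr8). Each gene took its probe with the highest mean. Populations were compared with limma 3.58.1 (lmFit, eBayes) in R 4.3.3, with Benjamini-Hochberg adjustment over all genes and a threshold of 0.05. The numeral was tested by an F test beside population. Scripts were tested on simulated data. The number of arrays limits precision.

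The genes and lists were chosen with earlier results of these data known. Named genes are the 8 genes, the 2 other genes of each list with the lowest population F p, the 5 most correlated with Fa2h and with Ugt8, and the sort antigens' genes. Cerk and the genes named for an order of arrays were chosen after their values were seen. Correlations of deviations between arrays of different populations were 0.037 to 0.144 for the same numeral and -0.107 to 0.007 for different numerals. No label links a numeral to a culture, so the numerals were not taken as pairs. Alternatives were quantile normalization, centring, a floor, a filter on dim genes, other probe rules, trend and robust estimates, the numeral as a block, and leaving out each array.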

Additional observations from a re-analysis of the deposited data

How the results depend on the processing

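None of the 7 genes was called in a population comparison under any alternative. Some intervals did not cross 0, among them these in O4 minus NG2/A2B5. Degs1 was at -0.30 (-0.59 to -0.0027) with quantile normalization. Psap was at -0.63 (-1.14 to -0.12) with the mean of a gene's probes. Fa2h was at 0.51 (0.098 to 0.91) with the numeral as a fixed replicate block and trend and robust estimates. Of the alternatives other than leaving out an array, 3 moved the differences between populations (quantile normalization, centring and the mean of a gene's probes). Over these, 59 of 63 differences kept direction and 4 reversed: Arsa in NG2/A2B5 minus NG2 (0.011) and Psap in O4 minus NG2 (-0.38) with the mean of a gene's probes, and Cers2 in O4 minus NG2/A2B5 (-0.078) and Degs1 in NG2/A2B5 minus NG2 (0.0047) with quantile normalization. The mean for Psap takes in its second probe, which was above the dim mark on none of the O4 arrays. With 1 array left out, 26 of 189 differences reversed. In O4 minus NG2 the ranges were -0.046 to 0.21 for Arsa, -0.20 to 0.14 for Cers2, -0.42 to 1.08 for Fa2h and -0.20 to 0.36 for Psap. In O4 minus NG2/A2B5 they were -0.11 to 0.23 for Cers2, -0.29 to 0.12 for Galc and -0.45 to 0.10 for Psap. In NG2/A2B5 minus NG2 they were -0.20 to 0.0074 for Arsa, -0.31 to 0.10 for Cers2, -0.12 to 0.14 for Degs1, -0.92 to 0.45 for Fa2h and -0.16 to 0.27 for Ugt8.

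Counts of all genes called were 1 in O4 minus NG2, 1 in O4 minus NG2/A2B5, 0 in NG2/A2B5 minus NG2 and 1 in the F test of population. The floor, the filter on dim genes, trend and robust estimates, and the numeral as a fixed replicate block each gave 0 wherever the count was 1, as did using only the 6 arrays compared for O4 minus NG2. The mean of a gene's probes gave 2 in O4 minus NG2, 1 in NG2/A2B5 minus NG2 and 2 in the F test. The replicate block with trend and robust estimates gave 124 in O4 minus NG2, 95 in NG2/A2B5 minus NG2 and 101 in the F test, with none of the 7 genes among them. Each of 9 arrays correlated best with its own numeral, a hint from the data and not the design. With 1 array left out, counts ran from 1 to 2, 0 to 4, 0 to 3 and 1 to 4. The numeral test called 82 genes, and 919 with the floor, 627 with the filter, 36 with the mean of probes, 1818 with trend and robust estimates, 0 with every probe tested separately and 0 to 2 with 1 array left out. Trend and robust estimates, which called 1818 of 12166 genes in this test, added Cers2 (adjusted p = 0.0251) and Ugt8 (0.0161) to Fa2h (3.91e-06). The cause of these changes was not tested.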
